A study of Mus musculus with 2 samples.

Results

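The nuclear receptor genes described here are 33 of the 21802 protein-coding genes measured. They were listed by symbol as the receptors for retinoids, thyroid hormone, vitamin D, lipids, bile acids, xenobiotics and female sex steroids, the oestrogen-related receptors, HNF4, NR5A2 and SHP, and further orphan receptors. A list of 15 other receptors, among them the regulators of steroid hormone synthesis, serves only for context. All 33 symbols matched the gene annotation.

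Chromatin accessibility was measured by DNase-seq, in which nuclei are treated with DNase I, an enzyme that cuts exposed DNA, and the cut ends are sequenced. The tissue was adrenal gland. The mice were males of the F1 hybrid B6CASTF1/J, adult at 18 to 20 months of age, with no treatment and no altered gene named in the labels. The 2 libraries, biological replicates 1 and 2, formed 1 group. The labels give them separate tissue samples under 1 donor entry, so a spread between them may be technical, and a design of this kind has no comparison between conditions and no test.

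Nuclear receptors are transcription factors with a shared DNA-binding domain, and most have a pocket that binds a hormone, a vitamin derivative, a lipid or a drug. Many bind DNA as pairs on 2 copies of a short hexamer, and the retinoid X receptors are the common partner of the receptors for retinoic acid, thyroid hormone, vitamin D, fatty acids, oxysterols and bile acids. Orphan receptors are those with no hormone assigned when they were named. The adrenal cortex turns cholesterol into steroid hormones, and members of the family control lipid handling in many steroid-making and lipid-storing tissues. An accessible promoter shows that the DNA around a start can be cut; it is not a measurement of transcript or protein.

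A gene is called open here if a peak of replicate 1 and a peak of replicate 2 overlapped by at least 1 bp and the merged region lay within 1 kb of any start of its protein-coding transcripts. Height is the authors' signal for a peak, on a scale that is not given in the sources used here, and the value of a gene is the height of its tallest shared promoter region. Replicate 1 had 98630 peaks and replicate 2 had 118249. Heights came in whole multiples of 1 step, 0.00531 in replicate 1 and 0.0075 in replicate 2, and the median peak was 135 steps and 100 steps high. Promoters of the cortex marker list were open at 8 of 11 genes and those of the endothelial list at 9 of 10, against 2 of 10 for the hepatocyte list and 2 of 10 for the kidney list. Markers of chromaffin cells were open at 4 of 10, with Th, Ddc and Pnmt without a peak, and the cortex markers Cyp21a1, Hsd3b1 and Mc2r had none. Adipocyte markers were open at 8 of 10 and macrophage markers at 3 of 10. Of all protein-coding genes 64.5% were open, and the share of the cortex list (72.7%) was near that. In a whole organ, fewer cells with an open promoter and a less accessible promoter in each cell cannot be told apart.

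The sequences that carry the main results are given first. The 3 tallest promoters among the receptors, those of Nr2c2, Esrra and Ppard, each lay in GC-rich sequence with several footprints, short stretches inside a peak that are protected from cutting. The stretches are parts of the open regions outside annotated coding and untranslated exons, read 5′ to 3′ on the strand of the gene from the RefSeq copy of GRCm38, the build that mm10 names, and capitals mark bases under a footprint in both libraries.
Nr2c2 chr6:92092181-92092380: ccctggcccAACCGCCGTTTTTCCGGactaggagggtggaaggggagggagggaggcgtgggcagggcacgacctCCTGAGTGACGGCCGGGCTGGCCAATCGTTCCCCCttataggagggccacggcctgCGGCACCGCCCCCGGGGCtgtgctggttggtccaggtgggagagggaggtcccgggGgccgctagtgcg
Esrra chr19:6921814-6922060: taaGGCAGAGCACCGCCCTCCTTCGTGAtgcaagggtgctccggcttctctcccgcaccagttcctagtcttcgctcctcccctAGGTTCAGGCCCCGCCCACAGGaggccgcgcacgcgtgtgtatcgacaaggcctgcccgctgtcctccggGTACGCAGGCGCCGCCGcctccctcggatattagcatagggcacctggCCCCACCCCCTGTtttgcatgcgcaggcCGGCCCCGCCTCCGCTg
Ppard chr17:28232501-28232699: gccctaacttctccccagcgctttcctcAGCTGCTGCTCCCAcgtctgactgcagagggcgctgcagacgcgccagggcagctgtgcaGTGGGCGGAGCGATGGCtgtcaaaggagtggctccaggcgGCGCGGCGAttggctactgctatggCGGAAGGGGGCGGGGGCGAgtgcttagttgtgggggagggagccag
Footprints covered 71 of 200 bases at Nr2c2, 93 of 247 at Esrra and 59 of 199 at Ppard, and the 3 stretches held 15, 22 and 14 CpG dinucleotides.

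A second set shows the CpG-poor promoters with the lowest ratios of replicate 1 over replicate 2. Nr1h3, Nr1h4 and Rxrg were all higher in replicate 2, and their sequences hold 5, 5 and 8 CpG dinucleotides.
Nr1h3 chr2:91195152-91195300: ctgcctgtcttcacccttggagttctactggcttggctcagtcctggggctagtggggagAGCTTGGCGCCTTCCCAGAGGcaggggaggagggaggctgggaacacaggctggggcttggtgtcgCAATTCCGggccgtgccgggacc
Nr1h4 chr10:89533586-89533740: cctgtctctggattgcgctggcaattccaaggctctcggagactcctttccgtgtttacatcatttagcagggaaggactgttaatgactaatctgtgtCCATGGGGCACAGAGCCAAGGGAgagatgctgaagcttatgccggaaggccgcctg
Rxrg chr1:167618081-167618308: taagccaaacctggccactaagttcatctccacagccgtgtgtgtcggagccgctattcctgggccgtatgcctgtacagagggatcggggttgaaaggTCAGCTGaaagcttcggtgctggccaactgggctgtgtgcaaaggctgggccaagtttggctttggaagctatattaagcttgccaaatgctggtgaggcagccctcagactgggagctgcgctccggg
Footprinted bases numbered 29 of 149 at Nr1h3, 23 of 155 at Nr1h4 and 7 of 228 at Rxrg.

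The last set shows every place where the regions of the 33 genes held a pair of receptor hexamers, each AGGTCA or AGTTCA or GGGTCA or GGTTCA. Pairs could run in the same direction (a direct repeat), towards each other or away from each other, with 0 to 5 bases between them, and either strand counted. Capitals here mark the hexamers.
Rarb chr14:16575509-16575533: gaagGGTTCAccgaaAGTTCActcg
Esrra chr19:6921313-6921333: ctctGGGTCAtAGGTCAtcgt
Nr6a1 chr2:38823227-38823251: atctGGGTCAtatatAGTTCAatgc
The pair at Rarb is a direct repeat with 5 bases between the hexamers, the arrangement known as the retinoic acid response element of this gene, and lay 22 bases downstream of the nearest start.

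Of the 33 receptor genes, 28 (84.8%) were open in both libraries, against 64.5% of all 21802 protein-coding genes. Nr2e3 had a promoter peak in replicate 1 only, 1 of 33 genes, and 1.79% of all genes did. Nr1i2, Nr1i3, Hnf4a and Hnf4g had none in either library. A footprint in a shared promoter region was present in both libraries at 27 of 33 genes, against 59.9% of all genes, and Esrrb was the 1 open receptor gene without such a footprint. The 33 genes had a median of 4 annotated starts, against 2 for all genes, so they had more places at which to be called open, and no comparison matched on the number of starts was made.

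The median open receptor promoter was lower than the median open promoter of all genes. Its height was 2.7, against 3.9 over 14066 open genes, and 10 of 28 stood above that all-gene median. The range ran from 0.422 at Pgr to 10.9 at Nr2c2. Nr2c2, Esrra, Ppard and Rxrb were in the top 10% of open genes, and Rxrg, Pgr, Esrrb, Nr5a2 and Nr2e1 in the lowest 10%. Both ends of the range of open promoters in this tissue were represented in the family.

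**Figure D1:**
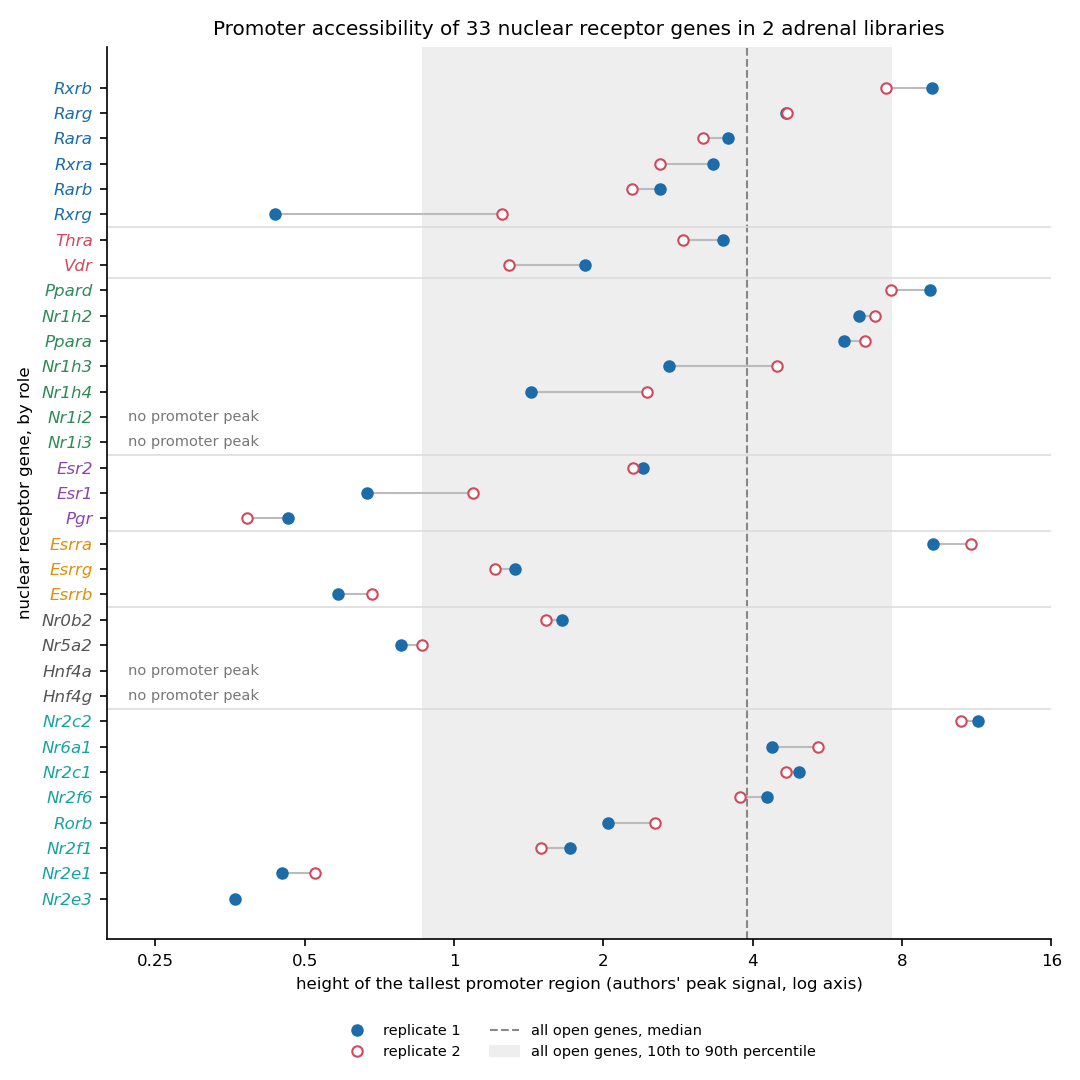
Height of the tallest shared promoter region of each of the 33 genes (horizontal log axis, the authors' peak signal), with filled points for replicate 1 and open points for replicate 2; grey lines part the role groups, and the shaded band spans the 10th to 90th percentile of all open genes, 0.867 to 7.59, around their median of 3.9. Nr2c2, Esrra, Ppard and Rxrb lie above or at the right edge of the band, 4 genes have no promoter peak, and Rxrg has its points farthest apart.

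All 6 retinoid receptor genes were open. The RARs bind retinoic acid and the RXRs are their partners. Rxrb, the tallest of them, had a height of 9.2 in replicate 1 and 7.42 in replicate 2 (8.31 ± 1.26, SD, n = 2), at chr17:34031601-34031820 just upstream of its start, with 5 footprints in both libraries. That region is also within 1 kb of a start of the neighbouring gene Slc39a7, a zinc transporter, and which gene it serves was not tested. Rarg, the receptor of epithelia, had 4.67 and 4.7 (4.69 ± 0.0212), at chr15:102246981-102247240 in an intron, centred at -610 bp from an internal start, with 3 shared footprints. Rara, the widely expressed form, had 3.57 and 3.18 (3.37 ± 0.274), at chr11:98960281-98960660 in a 5′ UTR exon, with 2 shared footprints. In both libraries the order of these 3 was the same.

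The other retinoid receptors, like Rara, lay below the all-gene median. Rxra, the main RXR of liver and skin, had 3.32 in replicate 1 and 2.6 in replicate 2 (2.96 ± 0.506), at chr2:27676761-27677000, with 4 shared footprints. Rarb, a gene known to be induced by retinoic acid, had 2.6 and 2.28 (2.44 ± 0.224), at chr14:16575201-16575780 in a 5′ UTR exon, with 4 shared footprints. The hexamer pair of Rarb lay in this region, and of its 17 bases 10 were overlapped by a footprint of replicate 1 and 7 by a footprint of replicate 2. Rxrg, the RXR of muscle and brain, had 0.435 and 1.25 (0.844 ± 0.578), from 82 and 167 steps, at chr1:167618081-167618435 in an intron, with 1 shared footprint.

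Both hormone and vitamin receptors were open, at heights below the all-gene median of 3.9. Thra, which encodes the thyroid hormone receptor alpha, had 3.49 in replicate 1 and 2.89 in replicate 2 (3.19 ± 0.425), at chr11:98741681-98741920 over its start, with 3 shared footprints. Vdr, the receptor for active vitamin D, had 1.84 and 1.29 (1.56 ± 0.387), at chr15:97908041-97908460 in a 5′ UTR exon, with 3 shared footprints. Vdr was 0.51 higher in replicate 1 on the log2 scale, the highest such ratio among the 28 open genes.

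Of the 7 lipid, bile acid and xenobiotic sensors, 5 were open, with a median height of 6.43. Ppard, a fatty acid sensor of many tissues, had 9.13 in replicate 1 and 7.59 in replicate 2 (8.36 ± 1.09), at chr17:28232501-28232760 over its first start, with 6 shared footprints. Nr1h2, the ubiquitous oxysterol receptor LXR-beta, had 6.56 and 7.07 (6.81 ± 0.364), at chr7:44553861-44554060, with 4 shared footprints. Ppara, which drives fatty acid oxidation in liver, had 6.12 and 6.73 (6.43 ± 0.433), at chr15:85735241-85735560, with 6 shared footprints. These 3 promoters were above the all-gene median in both libraries. Nr1h2 was higher than Ppara in each library, though the ranges of Nr1h2 and Ppara over both libraries overlapped.

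The remaining sensors were lower or had no promoter peak. Nr1h3, which encodes LXR-alpha, the oxysterol receptor of liver, fat and macrophages, had 2.71 in replicate 1 and 4.48 in replicate 2 (3.6 ± 1.25), at chr2:91195081-91195300, with 2 shared footprints. With the 5′ end of the gene record alone, at 91202834, the value of Nr1h3 was 5.36, against a median of 3.87 over all open genes. That end is more than 1 kb from the protein-coding starts of Nr1h3, which form 1 cluster beginning at 91195151. The 5.36 is thus not the height of a region within 1 kb of those starts, where the tallest was 3.6. Nr1h4, the bile acid receptor FXR, had 1.43 and 2.45 (1.94 ± 0.724), at chr10:89533521-89533740, with 1 shared footprint. Nr1i2 and Nr1i3, the xenobiotic receptors PXR and CAR of liver and gut, had no peak within 1 kb of a start. The nearest peak to a start of Nr1i2 lay at 4413 bp in replicate 1 and 4404 bp in replicate 2, and that of Nr1i3 at 6880 bp in both.

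The female sex steroid receptors were all open, and all stood below the all-gene median. Esr2, the oestrogen receptor beta, had 2.4 in replicate 1 and 2.3 in replicate 2 (2.35 ± 0.0689), at chr12:76177921-76178100, centred at -751 bp from its start, with 2 shared footprints. The region over the start of Esr2 was lower, with 0.642 and 0.63, and with a 500 bp promoter window the value of Esr2 was the mean of these, 0.636. Esr1, the oestrogen receptor alpha, had 0.669 and 1.09 (0.882 ± 0.301), at chr10:4709962-4710280 beside an internal start, with 1 shared footprint. Pgr, the progesterone receptor, had 0.462 and 0.382 (0.422 ± 0.0562), from 87 and 51 steps, at chr9:8900841-8901400 in a coding exon, with no shared footprint in that region and 2 in its other promoter regions. Pgr was the lowest of the 28 open genes.

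The 3 oestrogen-related receptors, which act without a known hormone on genes of mitochondrial energy supply, spanned a wide range. Esrra had 9.25 in replicate 1 and 11 in replicate 2 (10.1 ± 1.23), from 1743 and 1465 steps, at chr19:6921761-6922060, with 5 shared footprints. Esrrg had 1.33 and 1.21 (1.27 ± 0.0848), at chr1:187997621-187997940, with 2 shared footprints. Esrrb, known from embryonic stem cells, had 0.584 and 0.682 (0.633 ± 0.0696), at chr12:86421601-86421901 in a 5′ UTR exon, with none. Their order was the same in both libraries.

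Among HNF4, NR5A2 and SHP, 2 of 4 genes were open. Nr0b2, which encodes SHP, a receptor-like repressor without a DNA-binding domain, had 1.65 in replicate 1 and 1.53 in replicate 2 (1.59 ± 0.0858), at chr4:133553081-133553300, with 2 shared footprints. Nr5a2, the close relative of SF-1 known as LRH-1, had 0.781 and 0.862 (0.821 ± 0.058), at chr1:136948573-136949220 in a 5′ UTR exon, with 2 shared footprints. For context, Nr5a1, which encodes SF-1 itself, had 2.12 and 1.84. Hnf4a and Hnf4g, factors of liver, gut and kidney epithelium, had no promoter peak, and the nearest peaks to their starts were 4334 and 4308 bp away for Hnf4a and 55721 and 117531 bp away for Hnf4g.

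Of the 8 further orphan receptors, 7 were open. Nr2c2, which encodes testicular receptor 4, had 11.4 in replicate 1 and 10.5 in replicate 2 (10.9 ± 0.61), from 2140 and 1400 steps, at chr6:92092181-92092380 with 4 shared footprints, and ranked 107 of the 14066 open genes. Nr6a1, the germ cell nuclear factor, had 4.38 and 5.41 (4.9 ± 0.731), at chr2:38926321-38926520, with 4 shared footprints. Nr2c1, the close relative of Nr2c2, had 4.96 and 4.66 (4.81 ± 0.208), at chr10:94147761-94148020, with 3 shared footprints. Nr2c2 was higher than its relative in both libraries, and Nr6a1 and Nr2c1 did not differ beyond their spread.

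Nr2f6, a repressor studied in T cells, had 4.28 in replicate 1 and 3.77 in replicate 2 (4.03 ± 0.359), at chr8:71381861-71382200, with 4 shared footprints. Rorb, a receptor of retina and brain, had 2.04 and 2.54 (2.29 ± 0.352), at chr19:19111161-19111400, with 4 shared footprints. Nr2f1, which encodes COUP-TFI of the developing nervous system, had 1.71 and 1.5 (1.61 ± 0.152), at chr13:78199041-78199660 in a 5′ UTR exon, with 2 shared footprints. Nr2e1, the neural stem cell factor TLX, had 0.451 and 0.525 (0.488 ± 0.0521), from 85 and 70 steps, at chr10:42583081-42583712, with 1 shared footprint. Its promoter lay within 1 kb of a start of the neighbouring gene Ostm1.

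Nr2e3, a photoreceptor factor, was the exception between libraries. Replicate 1 listed 4 peaks near its start, the tallest of height 0.361 (68 steps) at chr9:59948881-59949680 in a coding exon, and replicate 2 listed none, with its nearest peak 2392 bp away. The authors' files of false discovery rates, which list only positions under 0.05, covered 94.3% of the 2001 bp window around this start in replicate 1 and 0% in replicate 2. The signal in replicate 1 was low and broad: the 4 peaks were 240 to 1040 bp wide and 0.212 to 0.361 high. The 4 genes without any promoter peak were not listed in either file, and 29 of 33 genes had listed positions in replicate 1, against 67.4% of all genes, and 28 in replicate 2, against 68.1%.

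CpG content of the promoter went with openness. CpG observed over expected was taken over 1 kb around the start nearest the open region, or around the 5′ end of a gene that was not open, and 0.6 or more is called CpG-rich. CpG-rich windows were found at 21 of 33 receptor genes, against 49.8% of all genes, and the median was 0.659 against 0.597. All 21 of these were open, against 96.2% of CpG-rich genes in general. Of the 12 CpG-poor receptor genes 7 were open, against 33.1% of CpG-poor genes. All 5 genes that were not open in both libraries (Nr1i2, Nr1i3, Hnf4a, Hnf4g and Nr2e3) were CpG-poor, with values from 0.153 at Nr1i2 to 0.463 at Hnf4g. The start used depends on which one was open: with the 5′ end of the gene record alone, 12 receptor genes were open and CpG-rich, and with a minimum of 0.75 there were 7.

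Heights followed the same division. Open CpG-rich receptor genes had a median height of 3.37, against 4.59 for open CpG-rich genes in general, and open CpG-poor ones had 1.59, against 1.82. CpG content did not fix the height: Nr2e1 at 0.7 and Ppard at 0.706 had almost the same CpG content, and heights of 0.488 and 8.36. Rxra and Nr2f6, with the most CpG among the 33 genes at 0.985 and 0.996, had heights of 2.96 and 4.03.

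**Figure D2:**
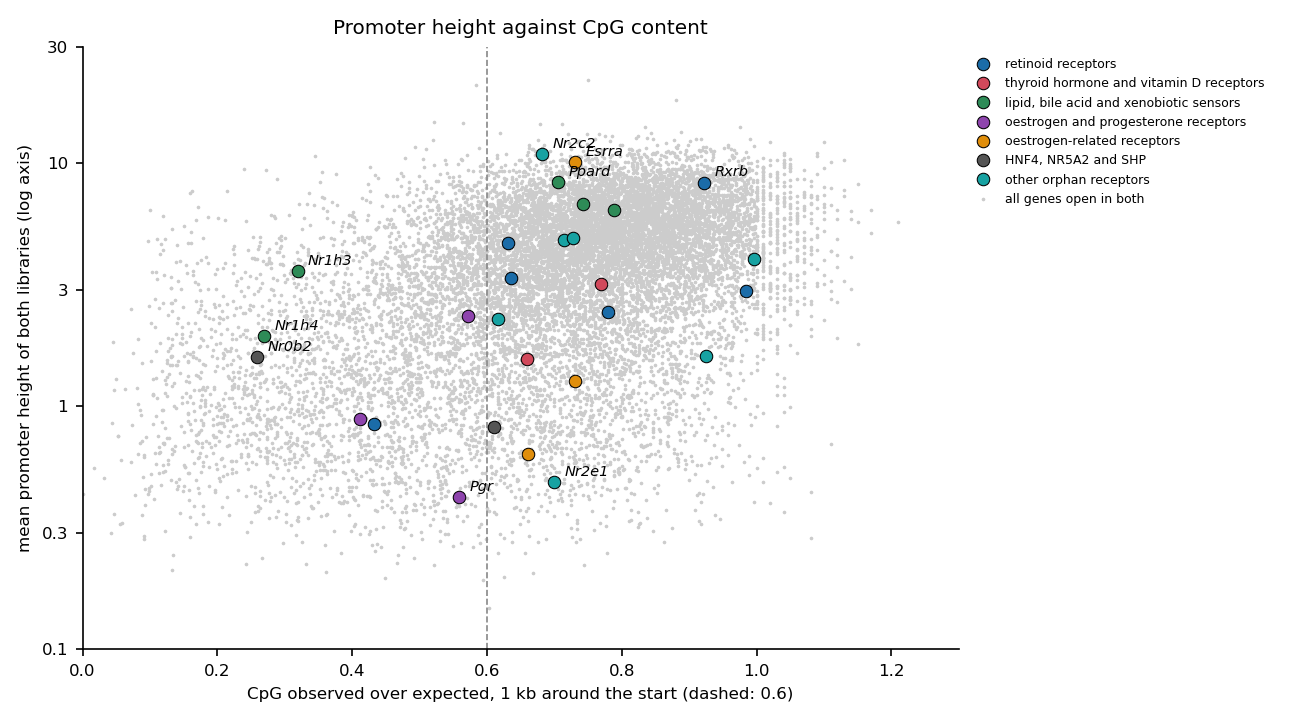
Mean promoter height of both libraries (vertical log axis) against CpG observed over expected (horizontal axis) for the 28 open receptor genes, coloured by role, over all 14066 open genes in grey, with the dashed line at 0.6. The receptor genes right of the line run from 0.488 at Nr2e1 to 10.9 at Nr2c2.

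Wide promoter regions went with low heights. In 5 of 28 open receptor genes (Rarb, Pgr, Nr5a2, Nr2e1 and Nr2f1) the tallest region was over 500 bp wide, against 10.6% of all open genes. Their median height was 0.821, against 3.37 for the 23 narrower ones. Over all genes the corresponding medians were 1.81 and 4.17. The tallest promoters were narrow, with 200 bp at Nr2c2, 300 bp at Esrra and 260 bp at Ppard.

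The only comparison between libraries is that of the replicates. The height of 0 of 28 receptor promoters was more than 1 log2 unit higher in replicate 1, against 0.306% of all open genes, and that of 1 of 28, Rxrg, was more than 1 log2 unit lower in replicate 1, against 0.661%. The median log2 ratio of replicate 1 over replicate 2 was 0.07 (0.05 over all open genes), and it was -0.14 with a 5 kb promoter window or with the heights of all promoter regions summed. Replicate 1 was higher at 15 genes and replicate 2 at 13.

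The largest differences among the receptor genes lay at CpG-poor promoters. Among the 21 open CpG-rich receptor genes, ratios ran from -0.31 to 0.51. Among the 7 open CpG-poor ones the median was -0.71, against -0.09 over 3628 open CpG-poor genes, while 4 of the 7 were higher in replicate 2 (57.1%), against 59.5% of those genes, a share near the background. Rxrg had -1.52, Nr1h4 -0.78, Nr1h3 -0.73 and Esr1 -0.71, while Nr0b2 (0.11), Esr2 (0.06) and Pgr (0.27) were close to even or higher in replicate 1. At Rxrg the shared region at the other of its 2 start clusters had 0.536 and 0.57, a ratio of -0.09, and beside it lay a peak listed in replicate 2 only, of height 0.337. Marker lists of cell types also differed in how many open genes were higher in replicate 2. Over all genes, 38.5% of open CpG-rich and 59.5% of open CpG-poor ones were higher in replicate 2. The adipocyte list was higher in replicate 2 at 6 of its 8 open genes, with a summed height of 17.8 in replicate 1 and 19.3 in replicate 2 and no shared peak at Adipoq or Cfd. The cortex list was higher in replicate 2 at 1 of 8, with 27.2 and 24.2 and no peak at Cyp21a1, Hsd3b1 or Mc2r, and the endothelial list at 1 of 9, with 12.7 and 10.3 and no shared peak at Pecam1. For the chromaffin list the count was 2 of 4 open genes, and for the macrophage list 1 of 3. For the hepatocyte and kidney lists it was 1 of 2 each. The part of cell makeup in the ratios of the receptor genes was not tested.

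**Figure D3:**
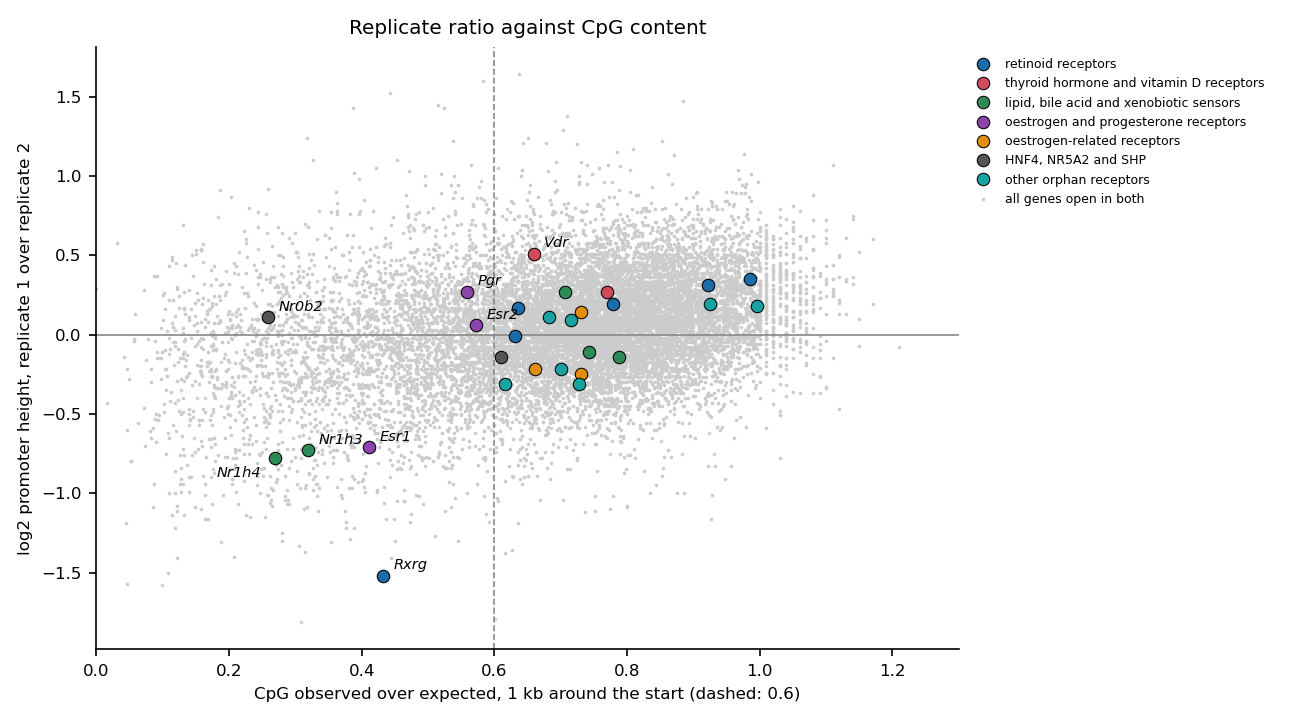
Log2 ratio of promoter height, replicate 1 over replicate 2 (vertical axis), against CpG observed over expected (horizontal axis) for the 28 open receptor genes, coloured by role, over all 14066 open genes in grey; the dashed line is at 0.6. Rxrg, Nr1h4, Nr1h3 and Esr1 lie between -1.52 and -0.71, and the CpG-rich receptor genes between -0.31 and 0.51.

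Many receptor genes have several starts, and openness could differ between them. Starts at most 1 kb apart were joined into clusters, which gave 67 clusters over the 33 genes, of which 39 were open in both libraries, against 48.7% of the clusters of all genes. More than 1 cluster was present at 22 of 33 genes, against 33.8% of all genes. Of the 22, 5 had every cluster open (Rxrg, Thra, Esr1, Esrrg and Nr2f1), against 11.1% of all genes with more than 1 cluster. Some but not all were open at 15, against 58.3%, and none at 2, Hnf4a and Hnf4g, against 30.6%. The second cluster of Thra counted as open through a region of 0.584 in replicate 1 and 0.75 in replicate 2, centred 803 bp downstream of its start. The peak over that start, of height 0.329, was listed in replicate 1 only. Among the 15, the first cluster from the 5′ end was open at 11 and not at 4 (Rarb, Vdr, Esrrb and Nr5a2), and it was not open at 15.8% of the corresponding genes overall.

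**Figure D4:**
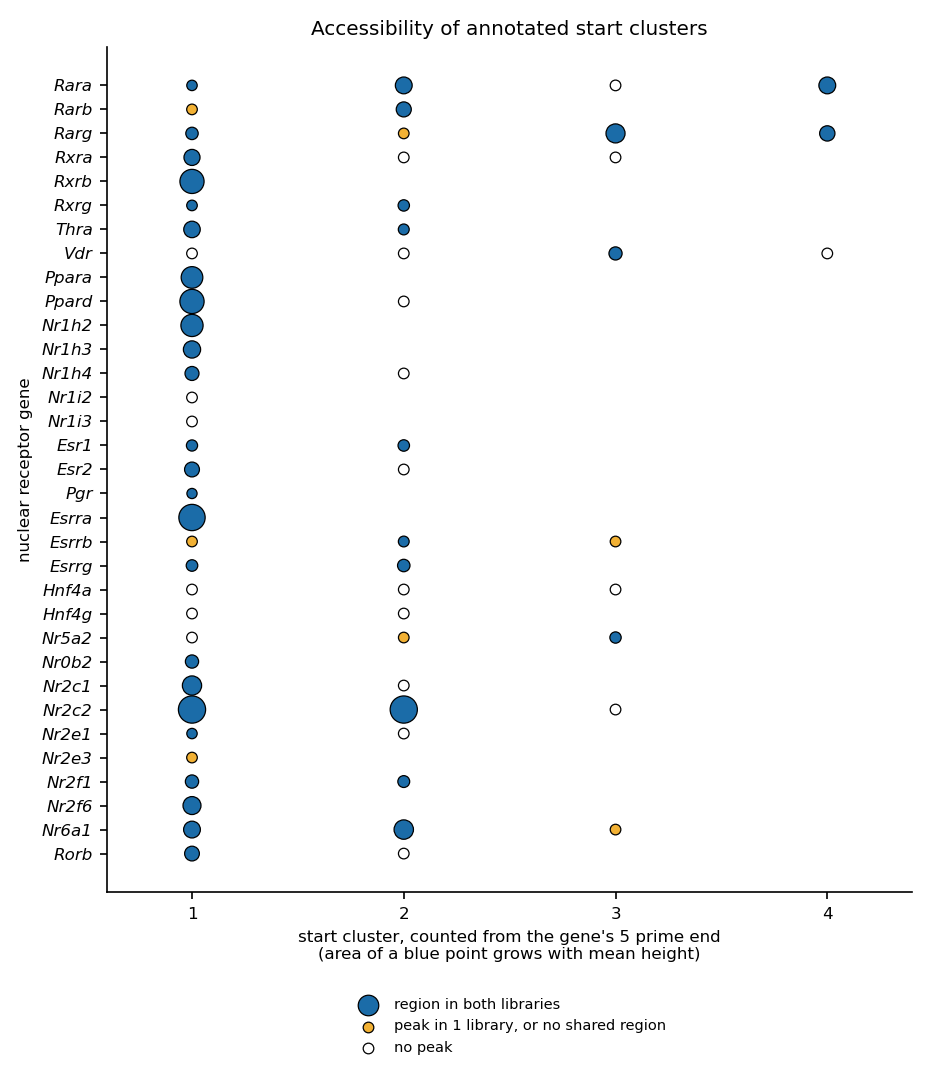
Annotated start clusters of each of the 33 genes, numbered from the 5′ end (horizontal axis), with blue points for a region in both libraries (area growing with mean height), yellow points for peaks without a shared region and white points for no peak. Rarb, Vdr, Esrrb and Nr5a2 have a blue point only after the first cluster, and Hnf4a and Hnf4g have white points alone.

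At 4 genes the most upstream start was not open and a later one was. Rarb was open at the cluster with starts at 16575827 and 16575543 (2.44). The start at 16575543 is the one that lies next to the retinoic acid element. The upstream cluster of Rarb at 16819156 had no shared region. Vdr was open at cluster 3 of 4 alone, at 97908310 (1.56). Esrrb was open at cluster 2 of 3, at 86421644 (0.633), and Nr5a2 at cluster 3 of 3, at 136949562 (0.821). With only the 5′ end of the gene record used, these 4 genes counted as not open and 24 of 33 were open, against 61.0% of all genes.

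The other 11 genes had their upstream cluster open. Rara was open at 98927818 (0.504), 98937698 (3.37) and 98960412 (3.37), and not at 98939711, so 2 of its promoters had the same mean height. Rarg was open at 102257517 (1.24), 102246500 (4.69) and 102243589 (2.57), and its tallest region lay at cluster 3 of 4. Nr6a1 was open at 38927688 (3.35) and 38926275 (4.9) and not at 38784520. The Nr6a1 region of height 3.35 lies within 1 kb of both open clusters and nearer to 38926275. The region nearest to 38927688 had 2.77 in replicate 1 and 2.46 in replicate 2. Nr2c2 was open at 92091390 and 92092433 and not at 92138015. At Nr2c2 the region over the first of these starts, at chr6:92091181-92091560, had 4.95 in replicate 1 and 3.98 in replicate 2, and the tallest region, which is within 1 kb of both open clusters, lies nearer to the second. Rxra, Ppard, Nr1h4, Esr2, Nr2c1, Nr2e1 and Rorb were open at the first cluster alone.

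Away from the starts, 30 of 33 receptor genes had at least 1 distal region within 50 kb, against 78.1% of all genes. A distal region is one in both libraries and more than 1 kb from every start of a protein-coding transcript. The median was 4 regions per gene, against 2, and a gene with more starts has a longer reach. With 1 start per receptor gene, an alternative chosen after the data were seen, the median for them was 4. With peaks of 1 library alone, which need no partner, the median was 6 in replicate 1 (3 over all genes) and 7 in replicate 2 (5 over all genes). Hnf4g, Nr2e1 and Rorb had none.

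There were 181 distal regions around the 33 genes, and for 106 the nearest start belonged to the receptor gene. They had a median height of 1.38, against 0.976 for 43066 distal regions genome-wide, and 146 (80.7%) held a footprint in both libraries, against 74.7%. In 71 cases the region lay in an intron of the receptor gene. Thra had the most, 22, of which 6 had Thra as their nearest start. Rara followed with 16 (12 nearest to Rara), and Hnf4a with 12 (4 nearest to Hnf4a).

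**Figure D5:**
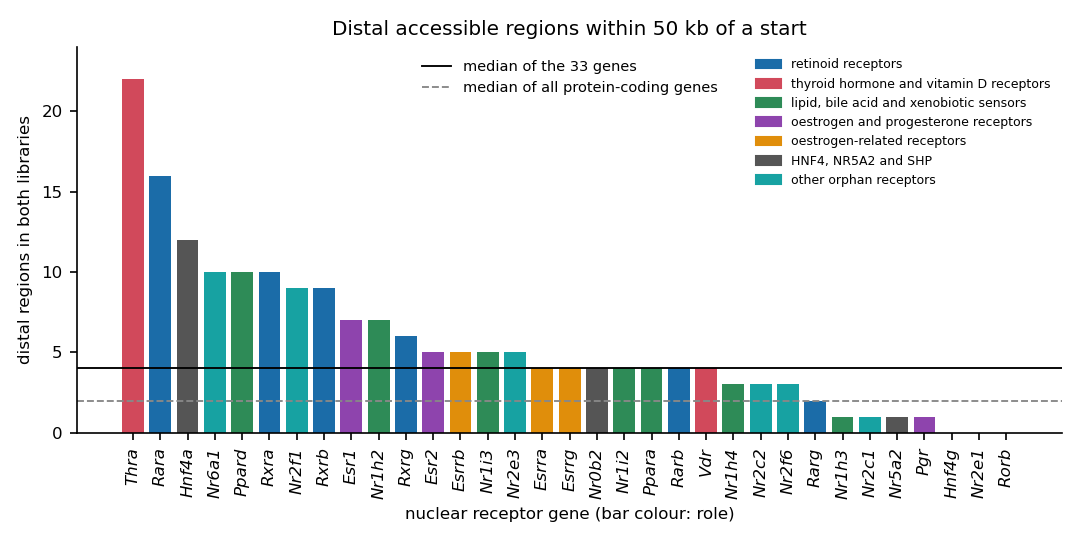
Number of distal regions in both libraries within 50 kb of a start (bars, coloured by role) for the 33 genes, in falling order, with the median of the 33 genes (4, solid line) and of all protein-coding genes (2, dashed line). Thra leads with 22, and Hnf4g, Nr2e1 and Rorb have 0.

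The tallest distal region of the set, 10.3 in replicate 1 and 10.5 in replicate 2 (10.4 ± 0.0933), lay at chr11:98773761-98774180, in an intron of Nr1d1, a repressor of the circadian clock whose gene overlaps the end of Thra. The next were at chr11:98783341-98783640 near the same genes, with 6.37 and 6.13 (6.25 ± 0.173), and at chr17:28308921-28309100 within 50 kb of Ppard, with 5.29 and 5.8 (5.55 ± 0.356). For none of the 3 was the nearest start that of the receptor gene; it was that of Nr1d1, Nr1d1 and Fance. The Nr1d1 intron held 6 footprints in both libraries and 3 matches to the E-box CACGTG under them, the sequence bound by the clock activators. At the second region, which also has an E-box under a footprint, the stretch reads as follows, with capitals for footprinted bases.
Thra distal chr11:98783341-98783640: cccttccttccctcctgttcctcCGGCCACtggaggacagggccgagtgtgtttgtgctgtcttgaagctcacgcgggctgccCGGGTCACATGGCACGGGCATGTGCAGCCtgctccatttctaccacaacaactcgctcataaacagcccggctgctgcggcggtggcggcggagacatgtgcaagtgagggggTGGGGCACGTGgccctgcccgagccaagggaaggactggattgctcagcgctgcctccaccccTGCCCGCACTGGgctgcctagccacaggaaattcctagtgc

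Hnf4a had tall distal regions without an open promoter. The pair of tallest lay in an intron of Hnf4a, with 4.72 in replicate 1 and 4.42 in replicate 2 (4.57 ± 0.214) at chr2:163535001-163535200 and with 4.37 and 4.53 (4.45 ± 0.113) at chr2:163532041-163532200. They held 5 and 3 shared footprints. Both are shown in full because they were higher than 19 of the 28 open receptor promoters, and the second holds a match to the motif of CTCF, a factor that organises chromatin loops, under a footprint.
Hnf4a distal chr2:163535001-163535200: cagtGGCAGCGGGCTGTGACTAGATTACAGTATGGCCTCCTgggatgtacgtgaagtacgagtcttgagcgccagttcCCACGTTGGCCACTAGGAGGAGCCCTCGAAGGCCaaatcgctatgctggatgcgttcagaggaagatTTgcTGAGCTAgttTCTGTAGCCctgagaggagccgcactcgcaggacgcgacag
Hnf4a distal chr2:163532041-163532200: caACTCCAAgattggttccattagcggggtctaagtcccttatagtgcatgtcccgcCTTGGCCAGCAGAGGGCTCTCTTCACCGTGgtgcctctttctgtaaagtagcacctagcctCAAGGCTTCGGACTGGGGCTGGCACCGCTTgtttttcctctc
Matches to the CTCF motif lay under a footprint in 21 (11.6%) of the 181 regions and in 10.5% of distal regions genome-wide, a share near the background. The other genes without an open promoter had distal regions as well, 5 at Nr1i3, 4 at Nr1i2 and 5 at Nr2e3, and the tallest at Nr1i3 (3.94 and 4.94) lay in an intron of the neighbouring gene Tomm40l.

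No hexamer pair lay fully under a footprint in both libraries at the receptor genes. The count was 0 of 33 in promoter regions, against 0.078% of all genes, and 0 of 33 in distal regions, against 0.211%, so such pairs were rare everywhere at this definition. Among the 3 pairs shown above, that of Rarb was partly overlapped by footprints of both libraries, that of Nr6a1, a direct repeat with 5 bases between the hexamers in an intron, was overlapped over 4 bases in replicate 1 and 0 in replicate 2, and that of Esrra, a direct repeat with 1 base between them, had no footprint. Pairs in promoter regions, under a footprint or not, were present at 2 of 33 genes (6.06%), against 1.11% of all genes, and in distal regions at 1 of 33 (3.03%), against 3.91%. Single AGGTCA hexamers lay under a footprint in 3 (1.66%) of the 181 distal regions, against 1.88% genome-wide.

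Motifs of general promoter factors were searched on both strands in the open promoter regions. Matches to GGGCGG, bound by SP and KLF factors, lay under a footprint at 12 of 28 open receptor genes (42.9%), against 46.5% of all open genes. Ppara and Nr2f6 had 4 such matches each, in overlapping pairs at Nr2f6, and Ppard had 3, the most among the 12. Matches to CCAAT, bound by NFY, were present at 14 of 28 (47.2% of all open genes), and lay under a footprint at 1, Nr2c2 (3.57%, against 11.6%). CCGGAAG of ETS factors lay under a footprint at Nr1h2 alone (3.57%, against 7.21%), TGACGTCA, bound by CREB factors, at Nr6a1 alone (3.57%, against 3.65%) and GCATGCGC, bound by NRF1, at Rxrb alone (3.57%, against 5.2%). The E-box was present at 8 of 28 (28.6%, against 16.4%) and under a footprint at 0 (3.92% of all open genes). A match says only that these letters are in the region.

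Every coactivator and corepressor gene of the lists, which open or close chromatin for the receptors, was open. All 10 coactivator genes were open (median 4.3), led by Carm1 (9.23), Ncoa2 (8.68) and Ncoa3 (5.86). All 8 corepressor genes were open (median 4.2), led by Hdac3 (6.72), Sin3a (6.42) and Tbl1xr1 (4.99). Of the other 15 nuclear receptors, 14 were open with a median of 4.12, led by Nr1d1 (8.67), Nr4a1 (7.69) and Nr1d2 (7.32), and Nr0b1, an inhibitor of SF-1, had a peak in replicate 1 only. These shares stand against 64.5% of all genes, with 96.2% of CpG-rich and 33.1% of CpG-poor ones. CpG-rich genes numbered 9 of 10 in the coactivator list, 7 of 8 in the corepressor list and 9 of 15 among the other receptors. The shares of the coactivator and corepressor lists were thus near that of CpG-rich genes in general.

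Most listed target genes of the PPARs, LXRs, ERRs and sex steroid receptors were open. Of all genes 64.5% were open, with 96.2% of CpG-rich and 33.1% of CpG-poor ones. CpG-rich genes numbered 2 of 10 in the PPAR list and 6 of 10 in the LXR list. They numbered 7 of 10 in the ERR list and 8 of 10 in the oestrogen and progesterone list. Of the 10 genes of the PPAR list 8 were open (median 4.05), with Acadm (9.27) and Cpt1a (4.53) among the highest and Fgf21 and Cyp4a14 without a peak. Of the LXR list 9 of 10 were open (median 1.4), with Lpcat3 (8.12), Mylip (7.75) and Srebf1 (5.8) highest and Abcg5 without a peak. All 10 of the ERR list were open (median 5.09), with Acadm, Cycs (8.33) and Idh3a (7.8) highest. Of the oestrogen and progesterone list 9 of 10 were open (median 2.04), with Fkbp5 (9.59), Zbtb16 (3.03) and Hsd17b11 (2.7) highest and Tff1 without a peak. Fkbp5 also responds to glucocorticoids, the steroids that the gland itself makes.

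The targets of FXR, PXR and CAR had the lowest count of the lists, and only 1 of these 10 genes was CpG-rich. Of all genes 64.5% were open, and of CpG-poor genes 33.1%. Of the 10 targets of FXR, PXR and CAR only Fgf15 (2.53) was open, and Abcb11, Slc51a and Cyp7a1 were among the 6 with no peak in either library. The promoters of Nr1i2 and Nr1i3 had no peak either, and that of Nr1h4 did. Of the 13 genes of retinoid supply and clearance 7 were open (median 1.83), with Rdh10 (4.14), Dhrs3 (2.81) and Aldh1a2 (2.21) highest and Stra6 and Cyp26c1 among those without a peak. Of the 10 genes of thyroid hormone and vitamin D targets and supply 8 were open (median 1.53), with Klf9 (4.81), Cyp2r1 (2.92) and Cyp24a1 (2.03) highest and Cyp27b1, which makes active vitamin D, without a peak.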

How the data were processed

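DNase-seq of adrenal gland was used, 1 library for each of 2 biological replicates of 1 group. Per the labels and file index, the authors aligned to mm10, filtered, and called peaks, footprints and false discovery rates library by library. Aligner and callers: not given in the sources used here. The height in the longer of 2 deposited peak lists per library was used as the authors' signal, and 100% of heights were whole multiples of 1 step, within 0.05 of a step. The score in the footprint lists deposited by the authors was not used. The deposited false discovery rate (a q-value) is listed only under 0.05, so a position not listed has no known value.

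Genes and starts came from GENCODE M21 on the same build: 54236 starts of protein-coding transcripts of 21802 genes on the numbered and sex chromosomes, after 54 records with a repeated symbol were left out. Peaks of both libraries were merged, and a region counted where both had a peak. Motif matches counted as under a footprint when they lay inside it, extended by 3 bp, in both libraries. The functions were tested on simulated peaks and planted hexamer pairs. Python 3.11.15, numpy 2.4.6 and pysam 0.24.0 were used. There are no tests and no p-values, since 1 group of 2 libraries allows none, and the number of steps in a height limits its precision. Alternatives were other windows, the shorter peak list, stricter overlap and leaving out each replicate. Genes named in full were the 3 tallest, those with a peak in 1 library and those with some starts open, plus every other receptor gene with its heights. For each list the 3 tallest and up to 3 without a peak were named, except that some are counted in their list but not reported here by name. The genes and lists were chosen with earlier results of these data known.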

Additional observations from a re-analysis of the deposited data

How the results depend on the processing

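The count of 28 open receptor genes lay between 23 and 31 under every alternative run. It was 26 with the shorter peak list (Esrrb and Nr2e1 lost), 31 with a 5 kb window, 24 with the gene 5′ end alone, 23 with peaks above the median height of their library, and 26 with only regions that had no start of another gene within 1 kb, an alternative chosen after the data were seen. The count with a footprint lay between 20 and 30. The median height of 2.7 was 3.07 with the shorter list, 2.44 with 5 kb, 2.32 with the 5′ end alone, 5.72 with heights summed, and 2.57 to 2.6 with 1 library left out. The median of 4 distal regions was 2 within 20 kb, 7 within 100 kb, and 3 with the shorter list, with peaks above the median height or with the nearest start only, and 6 to 7 with 1 library left out; over all genes these were 1, 5, 1, 1, 1 and 3 to 5. The 21 open CpG-rich genes became 12 with the 5′ end alone and 7 at a minimum of 0.75. The median log2 ratio of 0.07 was 0.10 with the shorter list, 0.06 with a 500 bp window, 0.08 with heights over the median promoter peak, and reversed to -0.14 with 5 kb and to -0.14 with heights summed; the cause was not tested. Hexamer pairs under a footprint stayed at 0, except that 1 gene (Rarb) counted when any overlap with a footprint sufficed, also chosen after the data were seen. Heights of single genes moved by more than their replicate spread at 6 genes with the 5′ end alone, 2 with 5 kb and 1 with 500 bp. No paired analysis was possible because there is only 1 group.

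Heights rest on 68 to 2140 steps in replicate 1 and 51 to 1465 in replicate 2, so the lowest promoters have the coarsest values relative to their height. What 1 step stands for is not given in the sources used here, and how certain a low height is was not tested. A peak that is not listed is not shown to be absent. Whether alleles of the hybrid mice affected alignment was not examined.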

Other observations

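Regions other than the tallest also differed between the libraries at the oestrogen-related receptors. A second promoter region of Esrrg had a height of 0.43 in replicate 1 and 1.09 in replicate 2, a log2 ratio of -1.35, and a second promoter region of Esrra had 1.23 and 2.21, a ratio of -0.84, while their tallest regions had ratios of 0.14 and -0.25. Another promoter region of Esrra went the other way, with 1.35 in replicate 1 and 1.1 in replicate 2, a ratio of 0.30. The remaining shared promoter regions of Esrrg had ratios of -0.80, -0.27 and 0.00. At Rxrb the region over the 5′ UTR had 2.95 in replicate 1 and 1.77 in replicate 2, a ratio of 0.74.

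The tallest of the 9 distal regions of Nr2f1, centred at -1983 bp from the nearest start, had 4.22 in replicate 1 and 3.03 in replicate 2 (3.63 ± 0.842, SD, n = 2), against 1.71 and 1.5 at the tallest promoter region of the same gene. A distal region taller than the tallest promoter region was not particular to Nr2f1. It was also present within 50 kb of Rara, Rxra, Rxrg, Thra, Vdr, Esr1, Esr2, Esrrb and Nr0b2, and absent at the other open receptor genes. At Rxrg the tallest distal region had 4.7 in replicate 1 and 4.53 in replicate 2 (4.61 ± 0.12), against 0.435 and 1.25 at its tallest promoter region. It lay between protein-coding genes, 26791 bp downstream of a start of Rxrg. The log2 ratio of replicate 1 over replicate 2 was 0.05 at this distal region, -1.52 at the tallest promoter region and -0.09 at the other shared promoter region of Rxrg.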
